A study of Mus musculus with 11 samples.

Results

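The 10 genes described here encode enzymes that carry glucose to lactate, and they were chosen by name: Hk2, Gpi1, Pfkl, Pfkp, Aldoa, Tpi1, Pgk1, Eno1, Pkm and Ldha. All 10 had a row in the RNA-seq count table, which held 12647 genes, and all 10 were among the 12625 genes that passed the filter on low counts. RNA was sequenced from LSKs, the Lin-Sca1+Kit+ fraction of mouse bone marrow that holds hematopoietic stem cells and multipotent progenitors. There were 9 libraries in 3 genotypes, with 3 libraries each. The p53+/+ mice were HUPKI animals, a humanized knock-in line in which part of the mouse p53 gene is replaced by the human sequence. The p53R248W/+ mice were heterozygous for R248W, a knock-in mutation made in that humanized gene. The p53-/- mice were homozygous for a p53 knockout, for which the study's methods name no humanized sequence. Both humanized lines had been bred onto a C57BL/6 background, and the study's mice were young and free of tumors. The labels do not say whether the libraries of a genotype came from separate mice, so the p-values measure the spread between these libraries, which may be in part technical.

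In glycolysis, hexokinase traps glucose in the cell, phosphofructokinase commits it to breakdown, aldolase splits the sugar, and the later enzymes make ATP and pyruvate, which lactate dehydrogenase turns into lactate. Hematopoietic stem cells live in a bone marrow niche low in oxygen and are known to rely on glycolysis, which the hypoxia factor HIF-1 and Myc both drive. Wild-type p53 is known to restrain it, through repression of glucose transporters and induction of Tigar, a phosphatase that drains a phosphofructokinase activator. The comparisons below ask whether the mRNAs of the core enzymes differed between LSKs with wild-type, mutant or no p53.

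Of the 10 enzymes, 5 have a copy of ACGTG, a core form of the site that HIF-1 binds, on either strand within RefSeq promoter windows. The windows run from 250 bases before to 50 bases after an annotated start (GRCm38.p6). All 10 genes were matched, with 16 windows in all, and the 5 genes were Hk2, Aldoa, Pgk1, Pkm and Ldha. Of all 32851 promoter windows in the table, 19.6% held ACGTG, against 6 of the 16 windows here, of which 2 are overlapping Aldoa windows that hold the same site. The palindrome CACGTG, the E-box that Myc binds and that contains ACGTG on both strands, was in 7.15% of all windows and in 1 of the 16, that of Ldha. The half-site consensus of p53 was in 8.36% of all windows and in 0 of the 16. These are matches of letters only, and other forms of the HIF-1 site were not searched. One motif-holding window each is given for Ldha, the most abundant enzyme, and for Pgk1 and Aldoa. For Pgk1 and Aldoa all p53-/- libraries lay above the p53+/+ libraries, where 31.4% of all genes did not overlap in either direction. A link between the motifs and the levels was not tested. The windows run 5′ to 3′ on the gene's strand, with ACGTG or its complement in capitals. The Ldha window lies at chr7:46845554-46845853 (plus strand), the Pgk1 window at chrX:106186850-106187149 (plus strand) and the Aldoa window at chr7:126799205-126799504 (minus strand).
Ldha: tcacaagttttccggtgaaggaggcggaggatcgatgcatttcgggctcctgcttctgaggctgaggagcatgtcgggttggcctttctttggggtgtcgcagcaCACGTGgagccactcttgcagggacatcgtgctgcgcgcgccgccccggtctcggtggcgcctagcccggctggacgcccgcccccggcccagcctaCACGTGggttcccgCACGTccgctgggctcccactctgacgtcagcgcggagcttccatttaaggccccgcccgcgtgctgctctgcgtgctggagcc
Pgk1: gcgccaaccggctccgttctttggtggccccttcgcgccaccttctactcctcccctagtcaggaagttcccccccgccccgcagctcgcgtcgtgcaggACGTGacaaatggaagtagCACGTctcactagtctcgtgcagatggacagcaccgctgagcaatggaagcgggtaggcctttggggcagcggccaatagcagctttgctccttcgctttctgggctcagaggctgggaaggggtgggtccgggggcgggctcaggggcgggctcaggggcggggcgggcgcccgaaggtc
Aldoa: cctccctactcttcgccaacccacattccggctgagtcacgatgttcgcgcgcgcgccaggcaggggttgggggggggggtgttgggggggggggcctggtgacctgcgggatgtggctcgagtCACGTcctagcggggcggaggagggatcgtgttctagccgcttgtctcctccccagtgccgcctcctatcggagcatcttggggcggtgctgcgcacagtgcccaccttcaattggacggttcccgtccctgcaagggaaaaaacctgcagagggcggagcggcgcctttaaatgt
The Ldha window held 3 separate sites, 2 of which were CACGTG, the Pgk1 window held 2 and the Aldoa window held 1. The other window of Ldha and the window of Aldoa farthest upstream, not shown, held 0 copies of ACGTG.

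The libraries held 18021375 to 29750702 counts, the most in p53R248W/+ replicate 1, and the 10 enzymes together took 0.528% to 0.701% of the counts. Trp53 itself, the targeted gene, was at 124.5, 207 and 376 CPM (counts scaled by the normalized size of each library) in p53+/+, at 219 to 241 in p53R248W/+ and at 129, 126.5 and 112 in p53-/-. It was still counted in the p53-/- libraries, 2 of which lay above the lowest p53+/+ library, and a count over the whole gene does not check a deletion of part of it. Cdkn1a, the p53 target that encodes the cell cycle inhibitor p21, was at 8.27 to 17.8 CPM in the p53-/- libraries against 43.6 to 67.0 in p53+/+ and 35.7 to 52.1 in p53R248W/+. Mdm2, another p53 target, was at 62.2 to 86.4 CPM in all 9 libraries. All 12 LSK identity genes were counted, and their summed level was 3919 to 4984 CPM in p53+/+, 4275 to 4773 in p53R248W/+ and 4923 to 5467 in p53-/-. The libraries stood apart in 4 ways that are given beside the results below. Neutrophil granule genes (S100a8, S100a9, Ltf, Ngp and Camp) summed to 3297 CPM in p53+/+ replicate 2 and 2114 CPM in p53R248W/+ replicate 2 but to 8.004 to 118 CPM in the other 7 libraries. Of 20 cell cycle genes, 2 passed the edgeR test as lower in p53-/- than in p53+/+ LSKs, where 3.50% of all genes passed. At an unadjusted p below 0.05 there were 12 of 20, where 23.4% of all genes were, and all 20 had a log2 fold change below 0. Their summed level was 3776 to 5463 CPM in p53-/-, 5401 to 6796 in p53+/+ and 5460 to 6136 in p53R248W/+. Y-linked genes were counted at a summed 110 CPM in p53+/+ replicate 2 and at 69.8 and 184.5 CPM in p53R248W/+ replicates 2 and 3. They were at most at 0.0491 CPM in p53-/-, at 0.101 and 0.167 in p53+/+ replicates 1 and 3 and at 0.216 in p53R248W/+ replicate 1. The fourth was a dependence of the levels on gene length.

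None of the 10 glycolytic enzymes passed the test between p53-/- and p53+/+ LSKs. By edgeR's quasi-likelihood test with Benjamini-Hochberg adjustment over all genes, 0 of 10 had an adjusted p below 0.05, where 3.50% of all genes did (442 of 12625). At an unadjusted p below 0.05 the count was also 0 of 10, against 23.4% of all genes, and DESeq2 and limma-voom also called 0. The log2 fold changes ran from -0.22 to 0.25, with 3 above 0 and 7 below, and their median was -0.15 where the median of all genes was 0.00. The 95% interval of the difference lay within 2-fold in either direction for all 10 enzymes and within 1.5-fold for 4. The p53R248W/+ LSKs gave the same count against p53+/+: 0 of 10 at an adjusted p below 0.05, where 0.00792% of all genes passed (1 of 12625), and 0 of 10 at an unadjusted p below 0.05, where 0.958% did. There the fold changes ran from -0.23 to 0.05 on the log2 scale, 9 of them below 0, with a median of -0.08 beside 0.01 for all genes. All 10 intervals again lay within 2-fold, and 7 within 1.5-fold. Between p53R248W/+ and p53-/- LSKs, 0 of 10 passed, where 3.44% of all genes did (434 of 12625), and 0 of 10 had an unadjusted p below 0.05, where 21.0% did. Here the log2 fold changes ran from -0.31 to 0.16 with a median of 0.02, the same as for all genes (0.02). DESeq2 likewise called 0 of 10 enzymes in the comparisons with p53R248W/+, though 1, Aldoa, had an unadjusted p below 0.05 against p53-/- (adjusted p = 0.189). The count stayed at 0 of 10 in each comparison without the 2 libraries that held neutrophil granule transcripts and after a trend with gene length was removed, both chosen after seeing the data. A p that misses the threshold does not show that the enzymes were equal, and the intervals state what differences these libraries leave possible.

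**Figure D1:**
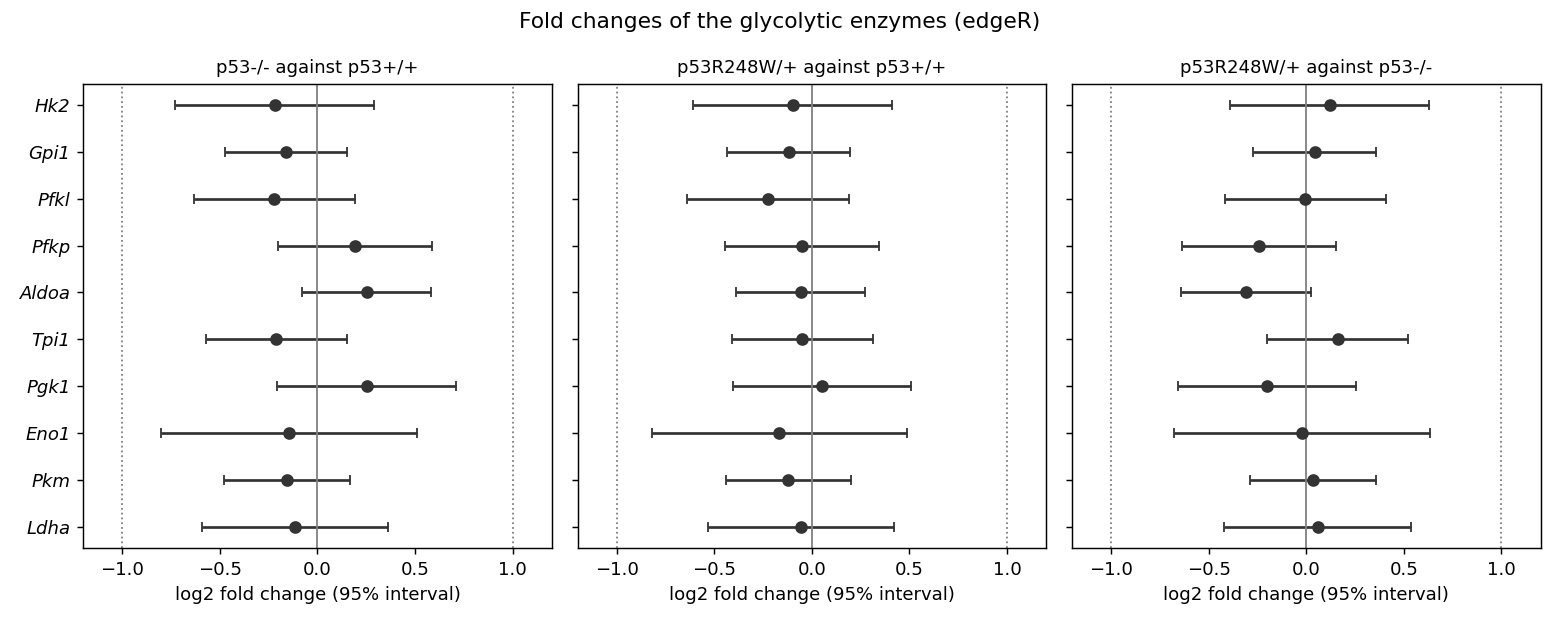
Log2 fold changes of the 10 glycolytic enzymes (points) with 95% intervals (bars) from edgeR in the 3 comparisons of genotypes, with dotted lines at a 2-fold change (-1 and 1). Every interval crosses 0 and lies within the dotted lines, and the largest shift is that of Aldoa between p53R248W/+ and p53-/- LSKs, at -0.31.

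The hexokinase and isomerase genes open the pathway. Hk2, the inducible hexokinase (chr6:82725025-82774454), was at 23.9, 30.4 and 39.1 CPM in the 3 p53+/+ libraries, at 21.7, 33.4 and 32.1 in p53R248W/+, and at 23.9, 28.7 and 27.6 in p53-/-. All 3 genotypes overlapped, and the p53-/- difference from p53+/+ was -0.22 ± 0.23 (log2, SE; edgeR adjusted p = 0.607, n = 3 each). Gpi1, glucose-6-phosphate isomerase (chr7:34201327-34230336), was at 537, 628 and 644 CPM in p53+/+, at 535, 587 and 544 in p53R248W/+ and at 534, 529 and 555 in p53-/-. Its lowest p53+/+ library lay among those of the other genotypes, and the log2 difference in p53-/- was -0.16 ± 0.14 (SE; edgeR adjusted p = 0.53).

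Of the 3 phosphofructokinase genes, Pfkl and Pfkp are given here and Pfkm with the other isozymes. Pfkl, the liver-type subunit (chr10:77986947-78009807), was at 310, 442 and 463 CPM in p53+/+, at 287, 379.5 and 372 in p53R248W/+ and at 350.5, 319.5 and 372 in p53-/-. The 2 highest libraries were p53+/+ and the lowest was p53R248W/+ replicate 1, and the log2 differences from them were -0.22 ± 0.19 in p53-/- and -0.23 ± 0.19 in p53R248W/+ (SE; edgeR adjusted p = 0.513 and 1). Pfkp, the platelet-type subunit (chr13:6579874-6649060), was at 73.6, 93.3 and 92.9 CPM in p53+/+, at 79.1, 98.8 and 73.3 in p53R248W/+ and at 115, 91.3 and 90.5 in p53-/-. Its highest value was in p53-/- replicate 1, while the other 2 p53-/- libraries lay within the p53+/+ range.

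Aldoa gave the largest difference among the 10 in p53-/- LSKs together with Pgk1. Aldoa, the aldolase that cleaves fructose-1,6-bisphosphate (chr7:126795234-126800994), was at 637, 738 and 781 CPM in p53+/+, at 753, 685 and 633 in p53R248W/+ and at 803, 926 and 838 in p53-/-. All 3 p53-/- libraries lay above the other 6. The fold was 1.19 over p53+/+ (log2 0.25 ± 0.15, 95% interval -0.08 to 0.58, edgeR adjusted p = 0.343), and p53R248W/+ was lower than p53-/- by -0.31 ± 0.15 on the log2 scale (95% interval -0.64 to 0.02, edgeR adjusted p = 0.271). Neither passed the test. Of the 10 enzymes, 2 had p53-/- libraries that did not overlap with p53+/+ ones, where 31.4% of all genes did not overlap, 1 did not overlap between p53R248W/+ and p53-/-, where 24.2% of all genes did not, and 0 did not overlap between p53R248W/+ and p53+/+, where the share of all genes was 5.04%. Tpi1, triosephosphate isomerase (chr6:124810586-124814158), was at 671, 705 and 897 CPM in p53+/+, at 837, 700 and 661 in p53R248W/+ and at 647, 688 and 630 in p53-/-. The high libraries were p53+/+ replicate 3 and p53R248W/+ replicate 1, and the log2 difference of p53-/- from p53+/+ was -0.21 ± 0.17 (SE; edgeR adjusted p = 0.473).

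**Figure D2:**
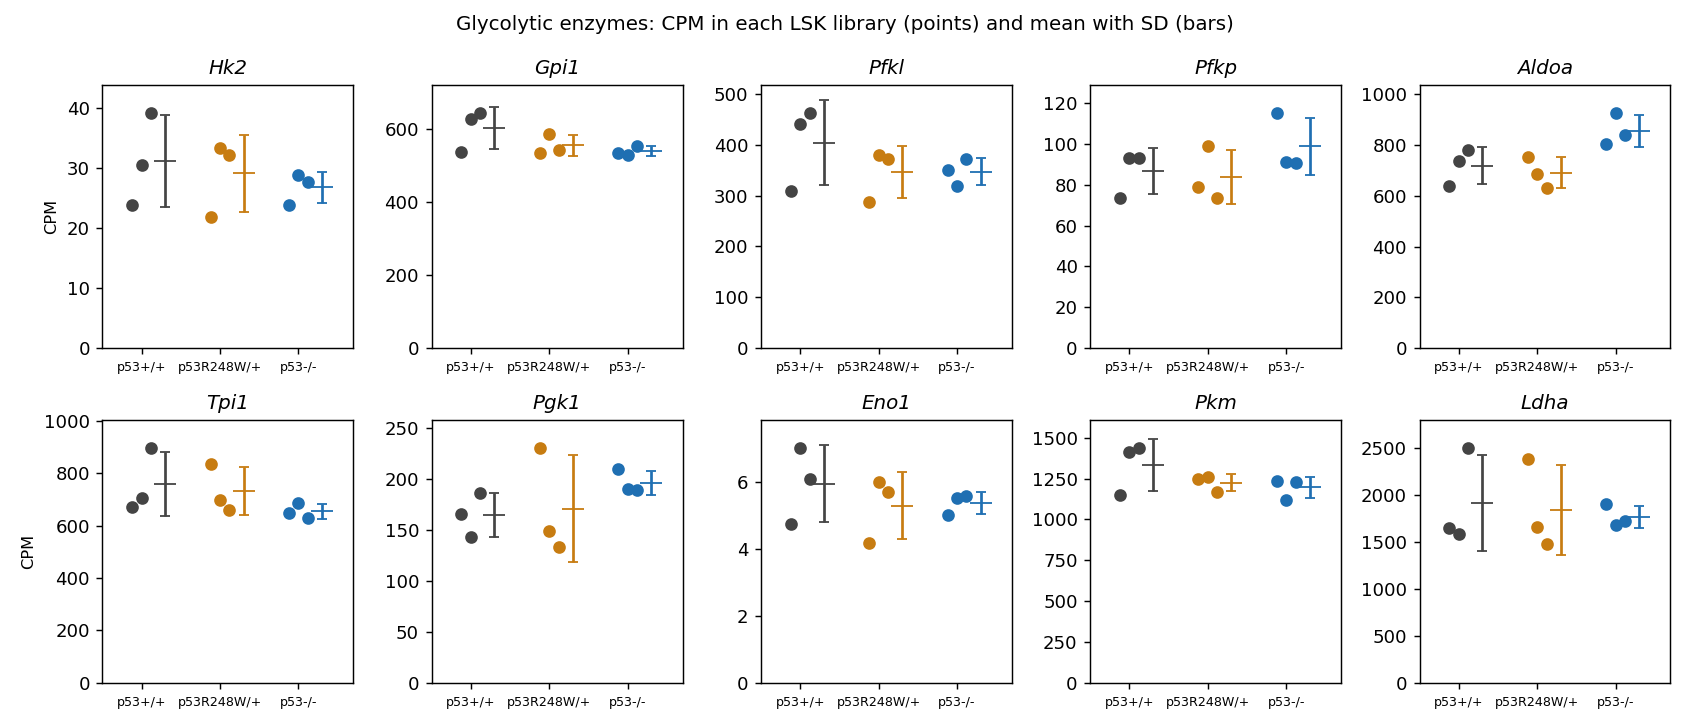
Level of each glycolytic enzyme in CPM (vertical axes from 0) in the LSK libraries of 3 genotypes, with 1 point per library and the mean with SD beside them (n = 3). The p53-/- libraries of Aldoa sit at 803 to 926 CPM, above the other 6 libraries, while for Ldha and Tpi1 p53+/+ replicate 3 and p53R248W/+ replicate 1 stand high.

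Pgk1, phosphoglycerate kinase, which makes the first ATP of the pathway (chrX:106187100-106203699), was at 166, 143 and 186 CPM in p53+/+, at 231, 149 and 133 in p53R248W/+ and at 210, 190.5 and 189 in p53-/-. The p53-/- libraries all lay above the p53+/+ libraries, but p53R248W/+ replicate 1 was higher than all of them. The log2 difference of p53-/- from p53+/+ was 0.25 ± 0.21 (SE; edgeR adjusted p = 0.498). Eno1, enolase (chr4:150236708-150248879), had only 92 to 141 counts in a library. It was at 4.74, 7.02 and 6.08 CPM in p53+/+, at 4.17, 6.02 and 5.71 in p53R248W/+ and at 5.005, 5.51 and 5.598 in p53-/-. The genotypes overlapped, and its interval in p53-/- against p53+/+, from -0.80 to 0.51 on the log2 scale, was the widest of the 10.

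Pkm, pyruvate kinase (chr9:59656576-59679372), was at 1148, 1412 and 1438 CPM in p53+/+, at 1249, 1261 and 1167 in p53R248W/+ and at 1237, 1120 and 1231 in p53-/-. Of the p53+/+ libraries, 2 lay above all the others and 1 lay near the lowest. The log2 differences were -0.16 ± 0.15 in p53-/- and -0.12 ± 0.15 in p53R248W/+ against p53+/+ (SE; edgeR adjusted p = 0.557 and 1). The counts do not separate the 2 splice forms of Pkm. Ldha, the lactate dehydrogenase subunit that favours lactate (chr7:46842274-46855627), was at 1649, 1588 and 2499 CPM in p53+/+, at 2379, 1656 and 1481 in p53R248W/+ and at 1898, 1677 and 1724 in p53-/-. As with Tpi1, the high libraries were p53+/+ replicate 3 and p53R248W/+ replicate 1. The log2 difference of p53-/- from p53+/+ was -0.11 ± 0.22 (SE; edgeR adjusted p = 0.79), and it turned to 0.13 without p53+/+ replicate 3.

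The enzymes differed far more from each other than between genotypes. Scaled by the length that the count table gives for each gene, Ldha was highest in p53+/+ LSKs at 991 ± 264 CPM per kilobase (SD, n = 3) and ranked 32 among 12625 genes. Pkm (513 ± 61.7), Tpi1 (473 ± 76.1) and Aldoa (394 ± 40.4) followed, and the libraries of neighbours among these 3 overlapped. Gpi1 (209 ± 20.01) was apart from both neighbours, Pfkl (109 ± 22.3) and Pgk1 (90.3 ± 11.7) overlapped, and Pfkp (20.7 ± 2.699), Hk2 (5.65 ± 1.38) and Eno1 (3.35 ± 0.65) followed without overlap. The order in p53R248W/+ LSKs was the same except that Pgk1 stood above Pfkl. In p53-/- LSKs, Pgk1 also stood above Pfkl and Aldoa (469 ± 34.6) stood second, above Pkm (460 ± 25.4).

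The level of some enzymes was measured through few letters of their own. Many glycolytic genes have processed copies elsewhere in the mouse genome, and a read from such a stretch has no unique place. In the GENCODE mRNAs, 91.4% of windows of 75 bases in Pgk1 had an exact copy elsewhere among the chromosomes of GRCm38, as did 65.4% in Eno1 and 62.5% in Aldoa. The share was 23.1% in Pkm, 13.7% in Gpi1, 12.5% in Tpi1, 7.15% in Ldha and 0% in Hk2, Pfkl and Pfkp. Among the enzymes of the other steps it was 85.4% in Gapdh and 91.8% in Pgam1. In windows of 50 bases the share was 80.3% in Aldoa, 40.5% in Pkm, 29.1% in Ldha, 24.7% in Gpi1, 23.6% in Tpi1 and 0.38% in Pfkl. Eno1b, an enolase gene with its own row, was at 2.83 to 5.25 CPM in the 9 libraries. The read length of the RNA-seq libraries and the handling of reads with several places are not given in the sources used here. The part of these copies in the levels was not tested. The order of Pgk1, Eno1, Aldoa, Gapdh and Pgam1 against the other enzymes is uncertain, and with shorter reads Pkm, Ldha, Gpi1 and Tpi1 would also be affected more.

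**Figure D3:**
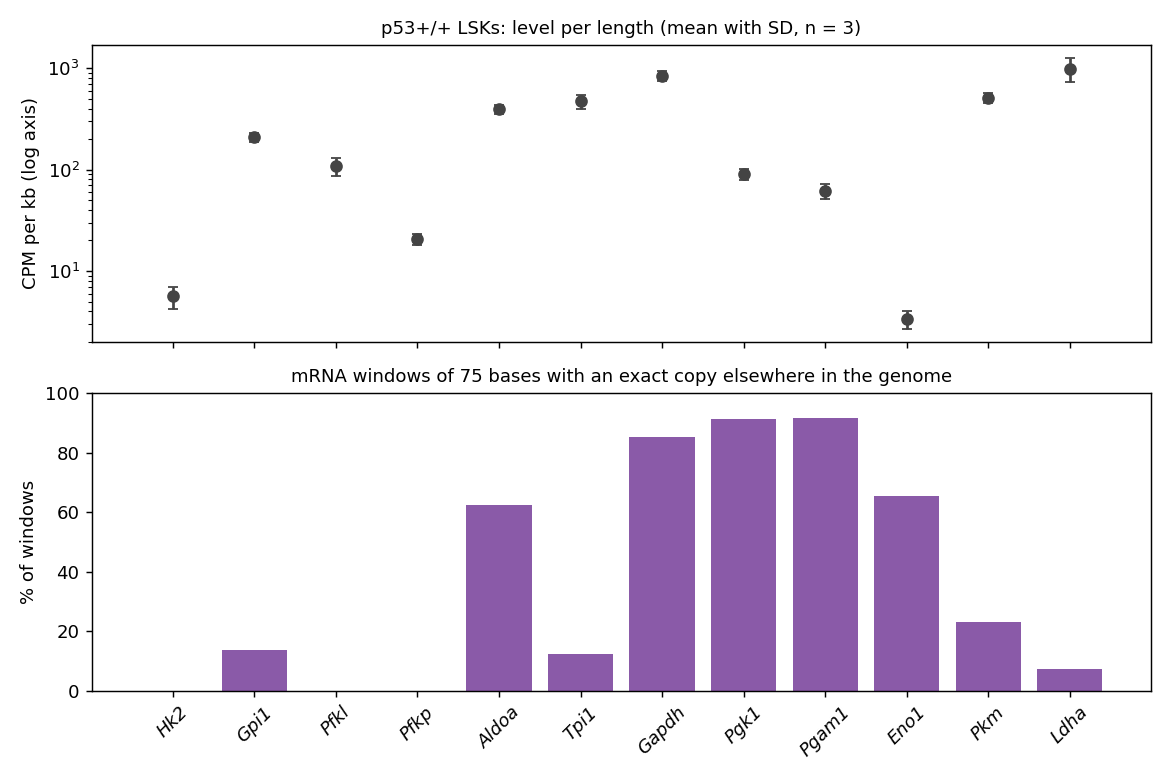
Top: level per length of 12 glycolytic genes in p53+/+ LSKs (mean with SD, n = 3, log axis). Bottom: percent of 75-base windows of each mRNA with an exact copy elsewhere in GRCm38. Eno1, the lowest at 3.35 CPM per kilobase, has copies of 65.4% of its windows, and Hk2, at 5.65, has 0%.

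The enzymes did not all rise and fall together across libraries, though most pairs had a positive correlation. Over the 9 libraries, Gpi1 and Pkm were the most alike (Pearson's r of log2 CPM 0.91), followed by Gpi1 with Pfkl (0.89) and Pfkl with Eno1 (0.88), while Ldha was like Tpi1 (0.84) and Pgk1 (0.73). Pgk1 ran against Eno1 (-0.68), Hk2 (-0.55) and Pfkl (-0.47). The levels in each library depended on gene length: Spearman's rho over all genes between a gene's log2 deviation and its length was -0.50 in p53R248W/+ replicate 1, where Pgk1 and Ldha were high and Hk2, Pfkl and Eno1 low, and 0.47 in p53+/+ replicate 2. In the other 7 libraries it was -0.32 to 0.32, and the part of length in these patterns was not tested. The mean log2 deviation of the 10 enzymes ranged from -0.17 to 0.24 in the p53+/+ libraries, from -0.12 to 0.01 in p53R248W/+ and from -0.01 to 0.01 in p53-/-. Among 9669 other genes with an average log2 CPM of at least 3, those most like this mean over the 9 libraries were Bysl (Pearson's r 0.95), Smyd2 (0.92), Rtcb (0.92), Srm (0.91) and Rars (0.90). These correlations are descriptions across libraries of 3 genotypes that share depth and length dependence.

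**Figure D4:**
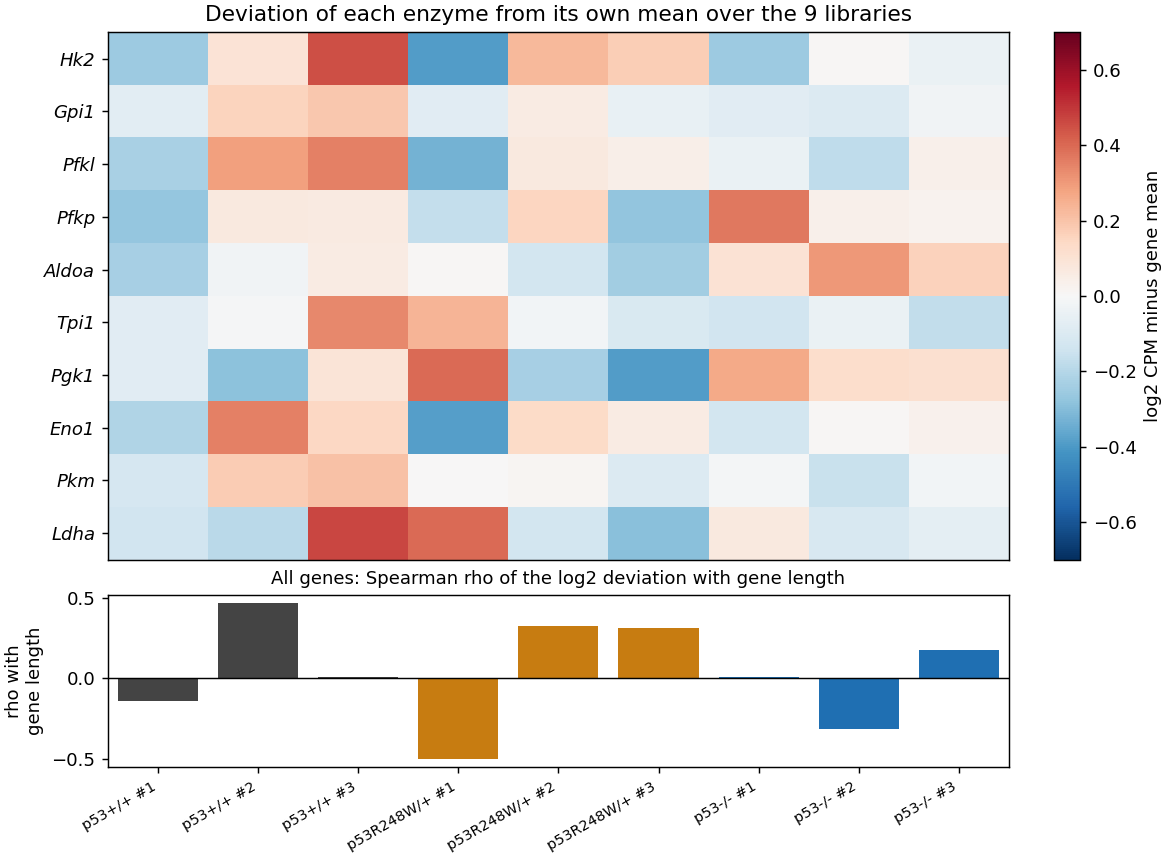
Top: log2 CPM of each glycolytic enzyme minus its mean over the 9 LSK libraries (colour scale). Bottom: Spearman's rho, over all genes of a library, of the log2 deviation with gene length. In p53R248W/+ replicate 1 (rho -0.50) Pgk1 and Ldha are high and Hk2, Pfkl and Eno1 low.

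The isozymes of a step differed in their share of its mRNA. Per length, Hk1 held 60.0% ± 1.68 (SD, n = 3) of hexokinase mRNA in p53+/+ LSKs, Hk3, the myeloid hexokinase, 34.8% ± 3.00 and Hk2 5.16% ± 1.39. In p53R248W/+ LSKs the shares of Hk1 and Hk3 were 54.4% ± 4.20 and 40.4% ± 4.29, and in p53-/- LSKs 60.0% ± 2.00 and 35.1% ± 1.55. Pfkl held 72.0% ± 3.19 of phosphofructokinase mRNA in p53+/+, and Pfkp held 13.8% ± 0.577 there and 17.6% ± 2.29 in p53-/-. Aldoa held 97.5% to 97.9% of aldolase mRNA as a mean of each genotype, with the rest from Aldoc. Of the summed mRNA of Eno1, Eno2 and Eno3, with Eno1b not counted in the sum, Eno3, the muscle enolase, held 59.9% ± 4.22 and Eno1 34.8% ± 5.50 in p53+/+ LSKs, which rests on the low counts of Eno1 described above. Exact copies elsewhere covered 65.4% of the 75-base windows of Eno1 and 62.5% of those of Aldoa. Their part in these shares was not tested, so which enolase was most abundant is uncertain. Ldhb, the subunit that favours pyruvate, took 11.2%, 7.53% and 5.67% of lactate dehydrogenase mRNA in p53+/+, 7.38%, 6.82% and 9.75% in p53R248W/+ and 10.5%, 15.6% and 13.3% in p53-/-. The lowest p53-/- share was below the highest p53+/+ share. In exact two-sided permutation tests of 26 such shares against p53+/+, the lowest p was 0.1, the smallest that 3 against 3 libraries can give, reached by Hk1 in p53R248W/+ and Pfkp in p53-/-, with an adjusted p of 0.65.

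The other enzymes and isozymes of the pathway also gave 0 calls. Of 23 listed, 17 were tested, and 0 passed in any comparison, while 2 had an unadjusted p below 0.05 in p53-/- against p53+/+ LSKs and 3 in p53R248W/+ against p53-/-. Both counts are shares of the 17 below those of all genes at that threshold, 23.4% and 21.0%. DESeq2 called Ldhb in p53-/- against p53+/+, and Ldhb and Bpgm in p53R248W/+ against p53-/-. It called 1552 and 1325 of all 12625 genes in these 2 comparisons, more than edgeR did (442 and 434). Ldhb was at 141, 87.4 and 102 CPM in p53+/+, at 128, 81.9 and 108 in p53R248W/+ and at 151, 209 and 178 in p53-/-, so that the p53-/- libraries lay above the other 6. Its fold over p53+/+ was 1.63 (log2 0.71 ± 0.23, edgeR adjusted p = 0.0937). Gapdh, which oxidizes glyceraldehyde-3-phosphate, differed by 0.03 ± 0.16 (log2, SE) in p53-/- LSKs and Pgam1, phosphoglycerate mutase, by -0.14 ± 0.18 (edgeR adjusted p = 0.918 and 0.697). Hk1 differed by -0.11 ± 0.26, Hk3 by -0.13 ± 0.24 and Pfkm by -0.25 ± 0.19, and none of these passed.

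Beyond the 10 enzymes, 4 listed genes passed the test in p53-/- LSKs: Slc2a3, Txnip, Pdp1 and Pdp2. Of 81 tested genes in 7 lists of the wider pathway, 4 rose in p53-/- against p53+/+ LSKs and 0 fell, with 15 at an unadjusted p below 0.05. Their median was 0.09 on the log2 scale, and the shares of all genes at the 2 thresholds were 3.50% and 23.4%, so the 4 of 81 called were near the background and the 15 of 81 below it. In p53R248W/+ against p53+/+, 0 of 81 passed and 0 had an unadjusted p below 0.05. In p53R248W/+ against p53-/-, 2 of 81 were lower, where 3.44% of all genes were called. At an unadjusted p below 0.05 there were 13 of 81, where 21.0% of all genes were, and the median was -0.07. The comparisons share libraries, so the second set of 2 is not separate evidence of the 4.

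Slc2a3, the high-affinity glucose transporter GLUT3, was at 119, 97.9 and 73.4 CPM in p53+/+, at 76.2, 85.3 and 96.5 in p53R248W/+ and at 204, 202 and 166 in p53-/-. All p53-/- libraries lay above the other 6, by a mean of 1.97-fold over p53+/+ (log2 0.98 ± 0.20, edgeR adjusted p = 0.0275), and p53R248W/+ was lower than p53-/- by -1.15 ± 0.20 (edgeR adjusted p = 0.0141). It was the 1 transporter called of 9 tested, where 3.50% of all genes were called. Slc2a1, the basal glucose transporter GLUT1, was at 54.7, 51.2 and 59.4 CPM in p53+/+, at 55.0, 49.6 and 48.3 in p53R248W/+ and at 76.5, 62.2 and 81.5 in p53-/-, a log2 difference of 0.41 ± 0.17 over p53+/+ with no overlap that did not pass (edgeR adjusted p = 0.16). The lactate transporters Slc16a1 and Slc16a3 differed by 0.20 ± 0.24 and 0.11 ± 0.34 and did not pass. Of the 9 transporters, 3 had all p53-/- libraries above the p53+/+ ones and 2 all below, where 31.4% of all genes did not overlap. The 2 below were Slc2a6 (2.26 to 4.30 CPM in p53-/- against 4.94 to 8.67 in p53+/+) and Slc2a8 (16.6 to 17.2 against 17.4 to 22.2). Neither passed.

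Txnip, which promotes the removal of glucose transporters from the cell surface, was at 614, 467 and 232 CPM in p53+/+, at 691, 459 and 493 in p53R248W/+ and at 920, 1568 and 918 in p53-/-. It rose 2.59-fold over p53+/+ (log2 1.38 ± 0.33, edgeR adjusted p = 0.0455), and the p53-/- libraries lay above the other 6. Of the 19 regulators of glycolytic flux tested, it was the 1 called (3.50% of all genes), while Tigar (0.25 ± 0.26), Pfkfb3 (-0.22 ± 0.18), Pfkfb4 (0.44 ± 0.33), Pdk1 (-0.28 ± 0.24), Hif1a (0.13 ± 0.19) and Myc (0.41 ± 0.21) did not pass in p53-/- against p53+/+ (log2, SE). Tigar, a direct p53 target, was at 7.91 to 12.6 CPM in p53+/+ and 9.62 to 13 in p53-/-.

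Pdp1 and Pdp2, the 2 phosphatases that switch on pyruvate dehydrogenase, were the 2 called of 10 genes for the entry of pyruvate into mitochondria, where 3.50% of all genes were called. Pdp1 was at 32.3, 33.1 and 30.3 CPM in p53+/+, at 42.1, 28.1 and 29.2 in p53R248W/+ and at 61.0, 52.6 and 58.9 in p53-/-. Pdp2 was at 10.6, 14.2 and 13.7 CPM in p53+/+, at 15.0, 14.9 and 15.4 in p53R248W/+ and at 25.7, 22.7 and 22.1 in p53-/-. For both genes the p53-/- libraries lay above the other 6. They rose 1.80-fold and 1.83-fold over p53+/+ (log2 0.85 ± 0.19 and 0.87 ± 0.21, edgeR adjusted p = 0.0377 and 0.0439), and Pdp1 was also lower in p53R248W/+ than in p53-/- (log2 -0.79 ± 0.19, edgeR adjusted p = 0.0453). The pyruvate carrier and dehydrogenase subunit genes did not pass.

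**Figure D5:**
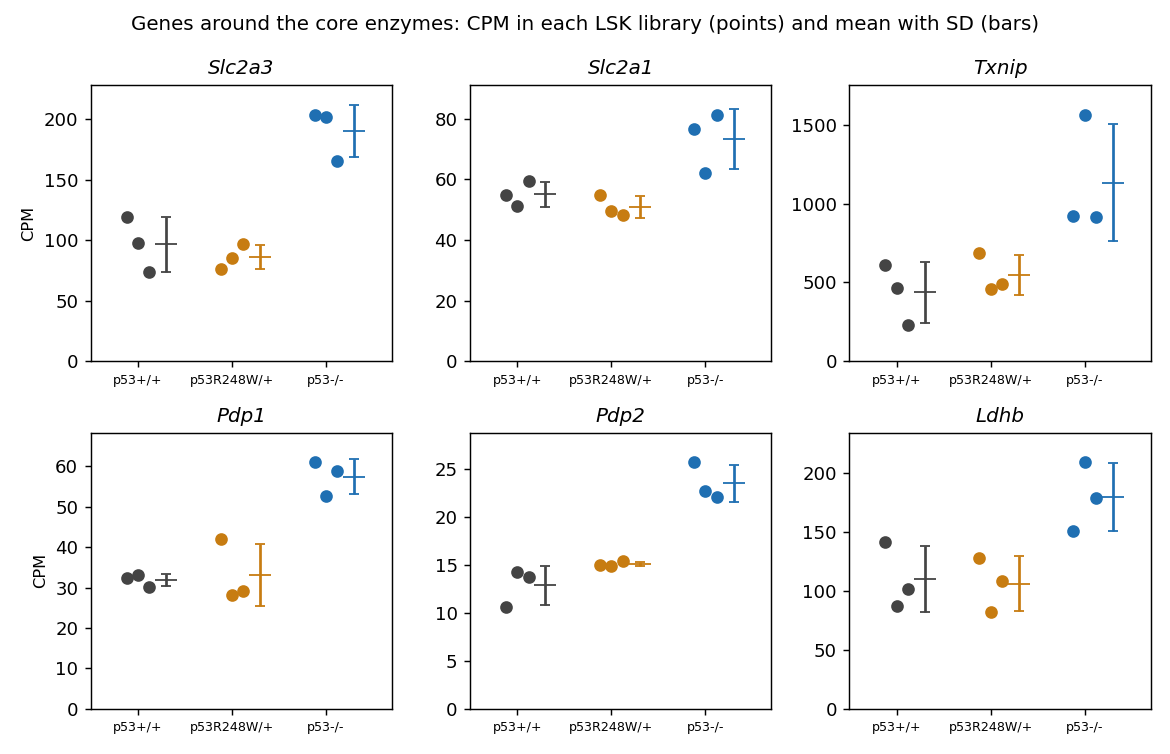
Level in CPM (vertical axes from 0) of 6 genes around the core enzymes in each LSK library, with the mean and SD of each genotype beside the points (n = 3). For all 6 the p53-/- libraries lie above the 6 others. Between p53-/- and p53+/+, 31.4% of all genes did not overlap in either direction. Slc2a3, Txnip, Pdp1 and Pdp2 passed the test against p53+/+ while Slc2a1 and Ldhb did not.

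These 4 calls sat close to the threshold. Leaving out p53+/+ replicate 2, p53+/+ replicate 3 or any p53-/- library ended all 4, with edgeR adjusted p between 0.057 and 0.157, and leaving out both libraries with neutrophil granule transcripts gave 0.113 to 0.159. The call of Pdp1 also ended without p53+/+ replicate 1 (adjusted p = 0.0606) and without p53R248W/+ replicate 3 (0.0506), and that of Pdp2 without p53+/+ replicate 1 (0.0852), p53R248W/+ replicate 2 (0.0681) or p53R248W/+ replicate 3 (0.0603). Txnip was lost without p53R248W/+ replicate 2 (0.0575) or replicate 3 (0.0579) too. Against p53R248W/+, the call of Slc2a3 ended without p53R248W/+ replicate 2 (0.0662) or p53-/- replicate 2 (0.0533), and that of Pdp1 on leaving out any 1 library except p53R248W/+ replicate 1 (0.0597 to 0.185). Without both neutrophil libraries these were 0.075 for Slc2a3 and 0.252 for Pdp1. That call of Pdp1 also ended with only the 2 genotypes compared (0.0881), with a Y-linked covariate (0.121) and with the length trend removed (0.0551). The fold changes moved less: over the 9 leave-outs the log2 fold change over p53+/+ was 0.81 to 1.15 for Slc2a3, 1.07 to 1.70 for Txnip, 0.81 to 0.91 for Pdp1 and 0.75 to 0.95 for Pdp2. Mki67, a marker of dividing cells, was at 17.1 to 22.0 CPM in the p53-/- libraries, 68.3 to 121 in p53+/+ and 28.2 to 134.5 in p53R248W/+. Other cell cycle genes differed less: the median log2 fold change of the 20 was -0.57 in p53-/- against p53+/+. Among them Pcna was at 262 to 343 CPM in p53-/- and 257 to 331 in p53+/+. The 13 granulocyte and monocyte markers summed to 1684 to 2145 CPM in p53-/-, against 2460 to 7342 in p53+/+ and 3930 to 9098 in p53R248W/+. None of the 13 passed between p53-/- and p53+/+, where 3.50% of all genes did. At an unadjusted p below 0.05 there were 7, where 23.4% of all genes were. Between p53R248W/+ and p53-/-, 2 of the 13 passed, where 3.44% of all genes did. The part of the cell cycle genes and of these markers in the 4 rises was not tested. In whole LSK samples, a change in the makeup of the cells and a change in the RNA of each cell cannot be told apart. Nor can loss of p53 be told apart from the line, since a humanized p53 gene is named only for the other 2 genotypes. Y-linked genes were at most at 0.0491 CPM in all p53-/- libraries, and were also low in p53+/+ replicates 1 and 3. The p53-/- columns are named in another form than the rest, and the labels do not say which libraries were made together.

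Branches of the pathway gave 0 calls in each comparison. In p53-/- against p53+/+, 0 of 10 tested pentose phosphate genes had an unadjusted p below 0.05, where 23.4% of all genes did, and their median log2 fold change was -0.05, with Tkt, transketolase, at -0.39 (edgeR adjusted p = 0.214). Of 4 gluconeogenic enzymes tested, 2 had an unadjusted p below 0.05 beside the same 23.4%, and Fbp1, fructose-1,6-bisphosphatase, was at 0.71 (edgeR adjusted p = 0.112). Of 13 genes induced by hypoxia outside glycolysis, 2 had an unadjusted p below 0.05, against 23.4% of all genes, and the median was 0.09. DESeq2 called Fbp1 and the hypoxia-induced P4ha1, and also Arnt, a partner of Hif1a among the regulators, in that comparison. It called 1552 of all 12625 genes there.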

How the data were processed

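RNA of LSKs was sequenced in 9 libraries (SMART-Seq v4 per the labels). The values are counts per gene as deposited by the authors, whose processing notes name STAR 2.5.2b, featureCounts, Subread 1.5.0, edgeR and the mm10 build. The table also holds the authors' own 3 comparisons of genotypes (a log2 fold change, a p-value and an FDR each), which were not used, and 0 other columns of per-sample values. Of the 11 samples, 2 H3K27me3 ChIP samples were not analysed here.

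The 9 libraries were fitted together with edgeR 4.0.16 (R 4.3.3): filterByExpr by genotype, TMM factors, quasi-likelihood F test, 3 contrasts, Benjamini-Hochberg adjustment over 12625 genes, threshold 0.05. Levels are CPM after TMM, divided by the authors' gene length where genes are compared. Intervals use the fit's degrees of freedom. The fit was tested on simulated data. Alternatives used DESeq2 1.42.0, limma 3.58.1, other factors and filters, a replicate block, a Y-linked covariate and left-out libraries. Depth was 18021375 to 29750702 counts, which gave 92 or more counts for every enzyme.

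The enzymes and gene lists were chosen with earlier results of these data known. Named genes are the 10 enzymes, a listed set of other enzymes, transporters and regulators, any listed gene with an adjusted p below 0.05, Trp53, Cdkn1a and Mdm2, and the 5 genes most correlated with the enzymes' mean. Other list genes, Mki67 and the neutrophil granule genes were named after their values were seen. The labels state no pairing, so the numbers were not taken to pair samples in the main fit. Same-numbered libraries of different genotypes had deviations that correlated over 0.1 in 3 of 9 pairs. Between p53+/+ and p53R248W/+ the correlation was 0.36 for replicate 1, 0.54 for replicate 2 and 0.04 for replicate 3. A replicate block is given as an alternative.

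Promoters are RefSeq windows of GRCm38.p6, the assembly of mm10. Copies of 75-base and 50-base windows of GENCODE vM21 mRNAs were sought as exact matches on 21 chromosomes, outside the gene itself. Genes whose list entry had no row were not analysed here.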

Additional observations from a re-analysis of the deposited data

How the results depend on the processing

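The count of glycolytic enzymes called was 0 of 10 in all 3 comparisons under all 21 alternatives, leave-outs included, and the lowest adjusted p of any enzyme was 0.0783. Of 630 enzyme fold changes under the alternatives, 595 kept their direction and 35 reversed, none of which was past the threshold. The median log2 fold change of the enzymes over left-out libraries was -0.25 to -0.05 for p53-/- against p53+/+, -0.17 to 0.01 for p53R248W/+ against p53+/+ and -0.04 to 0.04 for p53R248W/+ against p53-/-.

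With the Y-linked covariate, Eno1 turned to 0.017 in p53-/- against p53+/+, Tpi1 to 0.024 and Ldha to 0.095 in p53R248W/+ against p53+/+, and Hk2 to -0.082, Gpi1 to -0.011 and Pgk1 to 0.115 in p53R248W/+ against p53-/-. With the length trend removed, Pfkp turned to 0.002 against p53+/+ and Hk2 and Pkm to -0.01 against p53-/- in p53R248W/+. Pfkl in p53R248W/+ against p53-/- turned to 0.001 with upper-quartile factors and 0.006 with library totals. Without both neutrophil libraries Hk2 turned to -0.004 and Gpi1 to -0.013 in that comparison. Left-out libraries reversed Ldha in p53-/- against p53+/+ (-0.23 to 0.13). In p53R248W/+ against p53+/+ they gave -0.26 to 0.10 for Hk2, -0.18 to 0.039 for Pfkp, -0.14 to 0.01 for Aldoa, -0.17 to 0.091 for Tpi1, -0.24 to 0.20 for Pgk1, -0.30 to 0.18 for Ldha, -0.33 to 0.01 for Slc2a3 and -0.16 to 0.16 for Pdp1. In p53R248W/+ against p53-/- they gave -0.075 to 0.089 for Pfkl, -0.12 to 0.10 for Eno1, -0.01 to 0.069 for Pkm and -0.20 to 0.19 for Ldha. The causes were not tested.

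Other glycolytic enzymes called rose from 0 to 1 in p53-/- against p53+/+ and to 2 in p53R248W/+ against p53-/-, with DESeq2 and with the length trend removed alike, and ranged from 0 to 1 and from 0 to 2 over left-out libraries. Genes of the wider pathway lists called in p53-/- against p53+/+ went from 4 to 8 with DESeq2, 2 with library totals, 0 without both neutrophil libraries and 0 to 6 over left-out libraries. In p53R248W/+ against p53-/- they went from 2 to 7 with DESeq2, 4 with the length trend removed (Bpgm, Ldhb, Slc2a1 and Slc2a3, without Pdp1), 1 with only the 2 genotypes compared or the Y-linked covariate, 0 without both neutrophil libraries and 0 to 7 over left-out libraries. All genes called went, for p53-/- against p53+/+ and p53R248W/+ against p53-/-, from 442 and 434 to 1552 and 1325 with DESeq2, 894 and 208 with only the 2 genotypes compared, 1186 and 879 with the length trend removed, 59 and 77 without both neutrophil libraries, 37 to 1485 and 77 to 1559 over left-out libraries, and the second to 170 with the Y-linked covariate. For p53R248W/+ against p53+/+ the 1 call became 6 with DESeq2, 2 with the length trend removed and 0 with the stricter filter on low counts. Txnip lost its call with upper-quartile factors (adjusted p = 0.0504), library totals (0.0511) and the Y-linked covariate (0.0609), and Pdp2 with limma-voom (0.0509) and library totals (0.0535). Shares of counts not divided by length moved 26 of 39 isozyme shares by more than their SD. The length trend, the leave-out of both neutrophil libraries and the counts over the wider lists were chosen after seeing the data.

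With the replicate block, 882, 2 and 672 genes were called in p53-/- against p53+/+, p53R248W/+ against p53+/+ and p53R248W/+ against p53-/-, and the calls of the enzymes (0, 0 and 0) and of the wider lists (4, 0 and 2) did not change. Of the 9 libraries, 7 correlated best with a library of their own number. The column names of p53+/+ and p53R248W/+ libraries of the same number are alike in form, but the labels state no pairing. Eno1, with 92 to 141 counts, was the enzyme whose depth limits it most. Leaving out a library leaves 2 in a genotype, and the spread is then pooled over the others.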
